A study of Homo sapiens with 3 samples.

Results

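The genes described here encode the Wnt ligands, the proteins that release them from the cell, their receptors, and the secreted proteins that block or amplify them. They were taken by gene symbol from a list of 49 genes that applies no threshold to measured values but was drawn up with earlier results of these data known; it leaves out DKK1 and SOSTDC1, which are given at the end. The array's annotation held 48 of the 49 on 53 probes, out of 18639 genes on 21707 probes with a gene symbol; PORCN, the enzyme that attaches the lipid without which Wnt ligands are not secreted, was not analysed here. By class these were 19 Wnt ligands, 10 Frizzled receptors, 6 co-receptors (LRP5, LRP6, ROR1, ROR2, RYK and PTK7), 7 antagonists (4 SFRP genes, WIF1, DKK2 and DKK3), the secretion factor WLS, and 3 R-spondins with 2 of their LGR receptors.

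The samples were cultures of HT29, an established human colorectal cancer cell line, kept for 24 h either with DMSO alone, the solvent, or with 5 or 20 µM of a derivative of linderapyrone. The series compared derivative-treated with DMSO-treated cells to find genes whose expression differed. RNA of each culture was hybridised to 1 one-colour oligonucleotide array, so there were 3 arrays and no replicates. No p-value could be computed, and how much untreated cultures differ among themselves is unknown here. In a bulk culture, fewer cells that express a gene and less RNA per cell cannot be told apart.

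Wnt ligands are lipid-modified, secreted glycoproteins. WLS carries them to the cell surface, where a Frizzled receptor binds them together with LRP5 or LRP6, which stabilises beta-catenin, or with ROR1, ROR2, RYK or PTK7, which are tied to branches that do not use beta-catenin. Secreted Frizzled-related proteins (SFRP) and WIF1 bind the ligands, and DKK proteins such as DKK1 and DKK2 bind LRP5 and LRP6. R-spondins act through LGR receptors to keep Frizzled proteins on the surface. HT29 cells carry truncated APC, a scaffold of the complex that degrades beta-catenin, so much of their beta-catenin signalling lies downstream of these genes.

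Raw signals below are medians over the pixels of a spot, uncorrected and linear. The gene probes had a median signal of 117 on the DMSO array, 107 on the 5 µM array and 110 on the 20 µM array. A probe was called detected above the mean plus 2 SD of the blank and negative control spots, which put the thresholds at 82.5, 79.4 and 80.2. This is a low bar, since 13.1%, 18.4% and 11.5% of the 2412 positions without a probe also lay above it. A bar of mean plus 10 SD was passed by at most 0.415% of those positions. All 10 markers of colon epithelium with a probe were detected on all 3 arrays, among them EPCAM at 9660.1 in DMSO and KRT18 at 56135.0, although the intestinal transcription factor CDX2 reached only 92.6. Of all genes, 85.4% were detected on all 3 arrays, and of all gene probes 86.2% in DMSO, so such counts alone say little. Markers of other cells were detected in part: 4 of 7 fibroblast genes, 3 of 4 blood and immune genes and 3 of 4 endothelial genes with a probe lay above the bar in DMSO. Among these were DCN at 231.0, PDGFRB at 148.1, CD14 at 146.3 and KDR at 131.0, levels that many of the Wnt genes do not reach, while COL1A2, PTPRC and PECAM1 were detected on no array. The immune marker LYZ, a lysozyme that intestinal epithelium also makes, had a signal of 15819.4 in DMSO. What part other cells or the probes' own background have in these signals was not tested.

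Of the 48 genes, 43 were detected on all 3 arrays, which is 89.6% against 85.4% of all genes. Above mean plus 10 SD there were 36, or 75.0%, against 70.0% of all genes. Above the brightest position without a probe on each array, a bar added after the values were seen, 11 genes remained on all 3 arrays: WNT2, WNT5A, WNT6, WNT7A, FZD5, FZD6, LRP6, RYK, SFRP5, WLS and LGR4. They make up 22.9% of the 48, against 27.8% of all genes. WNT8A and RSPO3 were detected on no array. FZD1, FZD10 and SFRP4 passed the threshold on the DMSO array alone, where their signals of 84.7, 84.6 and 83.3 lay just above 82.5. How many of all genes did the same was not counted. That array also had the largest share of gene probes above its threshold, 86.2%, against 85.6% with 5 µM and 85.7% with 20 µM. A loss with treatment can therefore not be read from these 3 genes.

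**Figure D1:**
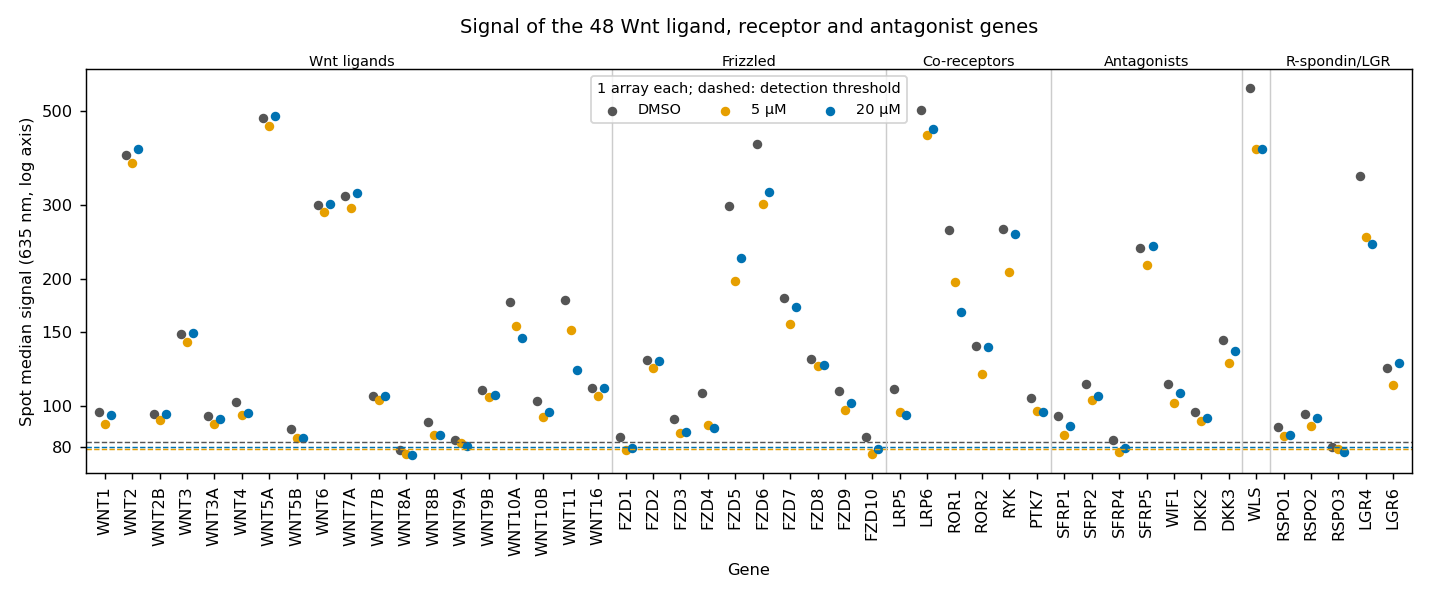
Spot median signal (log axis) of the probe that stands for each of the 48 genes on the DMSO, 5 µM and 20 µM arrays, 1 point per array, grouped by class, with the detection threshold of each array as a dashed line. Most genes lie close to the thresholds of 82.5, 79.4 and 80.2, and WLS, at 567.5 in DMSO, stands well above them.

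With 20 µM of the derivative, ROR1, WNT11, LGR4 and WLS had the lowest values relative to DMSO, and most of the set lay close to it. Signals were corrected by normexp with an offset of 50, quantile normalized and compared as log2 ratios, which understate the differences of dim genes. None of the 43 genes detected on both arrays was at least 1.5-fold apart in either direction. Of 16062 genes of the whole array that could be compared in this way, 1.94% were higher by at least 1.5-fold and 1.84% lower. A 2-fold bar was passed by 0.442% upward and 0.324% downward, and by 0 of the 43. The median log2 ratio of the 43 genes was 0.018, against 0.0071 over all genes, with 24 above 0 and 19 below. The lowest ratios were those of ROR1 at -0.55, WNT11 at -0.52, LGR4 at -0.41 and WLS at -0.33, and the highest was that of WNT2 at 0.22.

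A smaller step, a log2 ratio of 0.32, was added after the values were seen. These 4 genes at the lower end lay below DMSO by at least that step at 20 µM and make up 9.30% of the 43 genes, against 7.32% of all genes. Above DMSO by that step were 0 of the 43, against 5.85% of all genes. With median scaling of the arrays 5 genes, or 11.6%, lay that far below against 11.1% of all genes, and 0 above against 4.20%. In the authors' deposited table, which has no offset, 10 genes, or 23.3%, lay that far below against 17.4% of all genes, and 2, or 4.65%, above against 15.9%. The share of lower genes was thus near that of all genes under both scalings and above it in the deposited table. Median scaling also put ROR1 past 1.5-fold, 1 of the 43 or 2.33%, against 3.13% of all genes lower and 1.40% higher. The arrays hold only a technical measure of spread: 2007 genes had a pair of probes detected on both arrays, and from the differences within these pairs 1 log2 ratio had an SD of 0.14. ROR1, WNT11, LGR4 and WLS lay below 0 by more than 2 times that SD, 0.29, which is 9.30% of the 43 against 8.78% of all genes, and FZD5, at -0.28, just inside it. None of the 43 lay that far above 0, against 6.97% of all genes. In 1459 of the 2007 genes both probes were below a signal of 400 in DMSO, and there the SD was smaller, 0.12. FZD5 at -0.28 and FZD4 at -0.27 also lay below 0 by more than 2 times that smaller SD, and no gene of the 43 lay that far above 0. The share of all genes beyond that smaller bar was not counted, so these values cannot be read as particular to the set.

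The second comparison set 5 µM against the same DMSO array. Again 0 of the 43 genes were at least 1.5-fold apart, where 0.386% of all 16075 genes were that much higher and 0.0871% that much lower. Of the 43 log2 ratios, 21 were above 0 and 22 below. FZD5 was the 1 gene of the set below DMSO by the step of 0.32, 2.33% of the 43 against 1.87% of all genes, and 0 lay that far above against 1.82%. With median scaling 4 genes, or 9.30%, lay that far below against 9.39% of all genes, and 0 above against 0.585%. The authors' deposited table also gave 4 below, against 12.7% of all genes, and 2, or 4.65%, above against 6.46%. The third comparison, 20 against 5 µM, does not use the DMSO array. There too 0 of the 43 genes were 1.5-fold apart, against 0.917% of all genes higher and 0.886% lower, and 2 of them, WNT11 and ROR1, were lower at 20 µM by the step of 0.32, 4.65% against 3.99% of all genes, with 0 higher against 3.98%. With median scaling the same 2 genes, at -0.45 and -0.33, passed that step, against 2.41% of all genes, and 0 were higher against 6.20%. By the authors' deposited table, lower by that step were 4 genes, or 9.30%, against 9.94% of all genes, and higher were 4 against 14.6%. The technical SD was 0.11 for 5 µM against DMSO and 0.12 between the doses, or 0.088 and 0.10 from the pairs below a signal of 400. The larger SDs are used below for both scalings, with no separate SD for median-scaled ratios. At 5 µM, 2 technical SDs came to 0.22, beyond which lay FZD5 and LGR4 on the lower side, 4.65% against 5.65% of all genes, and WNT5A, WNT2 and WNT6 on the higher, 6.98% against 4.71%. With median scaling 0 of the 43 were that far above, against 201 of all 16075 genes. FZD5, FZD6, ROR1, RYK, WLS and LGR4 were that far below, 14.0% against 19.3% of all genes.

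**Figure D2:**
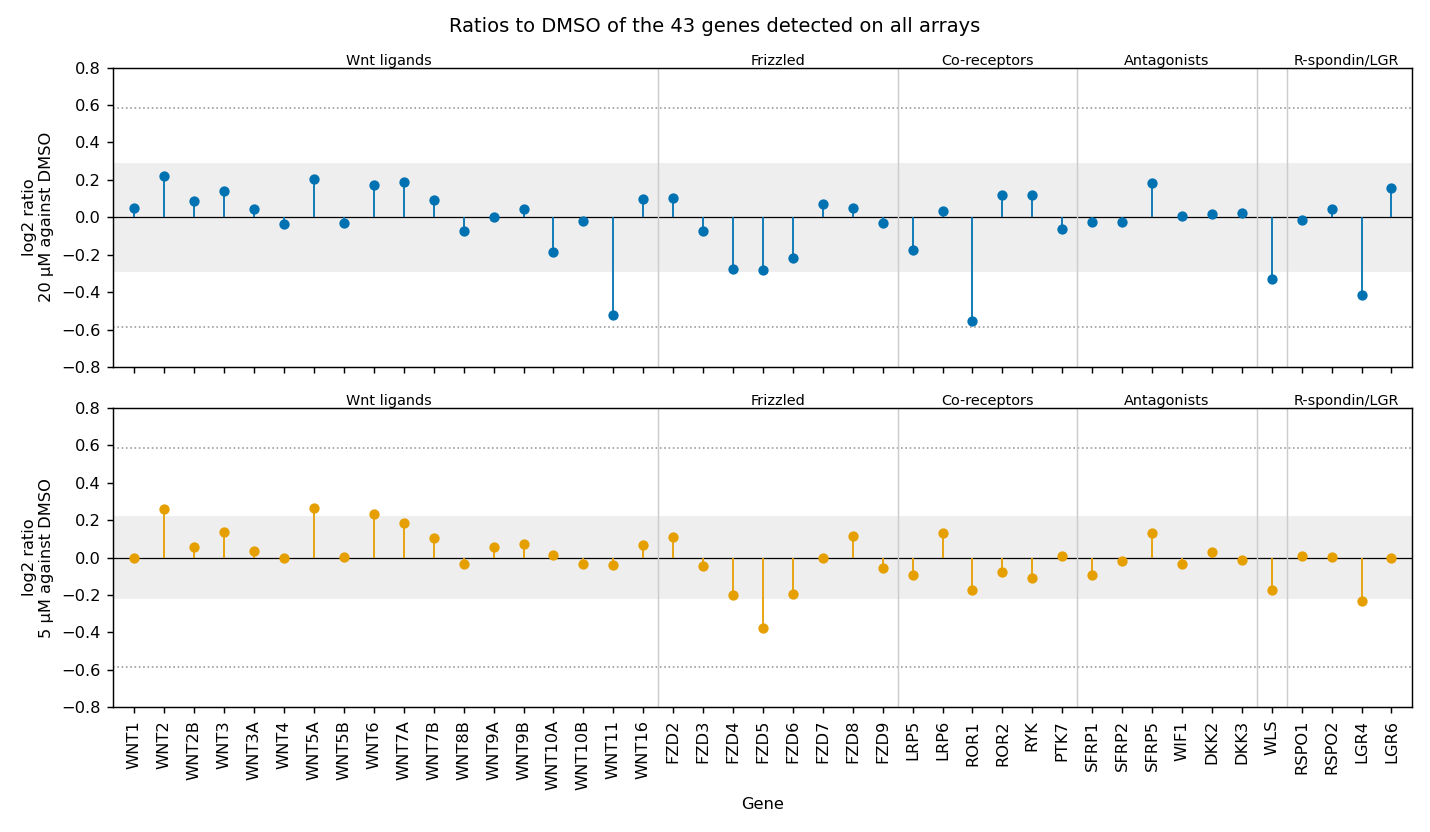
Log2 ratios of 20 µM against DMSO (top) and 5 µM against DMSO (bottom) for the 43 genes detected on all 3 arrays, grouped by class; the grey band reaches 2 technical SDs of 1 ratio to either side of 0 (0.29 and 0.22) and the dotted lines mark 1.5-fold. At 20 µM, WNT11, ROR1, WLS and LGR4 lie below the band and no gene reaches a dotted line.

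Among the ligands, WNT11 stood apart. WNT11 acts mostly through branches without beta-catenin in the cell movements of embryonic development. Its signal was 178.6 with DMSO, against 151.7 with 5 µM and 121.7 with 20 µM of the derivative. At 20 µM this was below the brightest position without a probe on that array, 224. The normalized value was 1.44-fold lower at 20 µM than in DMSO and 1.40-fold lower than at 5 µM, while 5 µM lay close to DMSO, with a log2 ratio of -0.041. In the authors' deposited table, which has about the blank level taken off and no offset, WNT11 stood at 46.7, 43.2 and 23.5, a log2 ratio of -0.99 at 20 µM. WNT10A, a ligand of the beta-catenin branch, had signals of 176.3, 155.0 and 145.0 in the same order. Its log2 ratio was -0.19 at 20 µM against DMSO, 0.017 at 5 µM and -0.20 between the doses, with -0.072 at 5 µM under median scaling.

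The ligands with signals well above the blank spots did not share that direction. WNT2, a ligand of the beta-catenin branch, had signals of 392.9, 376.8 and 405.8 on the DMSO, 5 µM and 20 µM arrays. WNT5A, the best known ligand of ROR receptors, had 481.7, 461.4 and 486.7. WNT6 had 298.6, 288.2 and 301.0, and WNT7A 314.8, 294.5 and 319.8. In all of these genes the 3 raw signals lay close together, with 5 µM lowest, while the middle of the arrays was dimmer in both treated cultures. The log2 ratios at 20 µM were above 0, at 0.22 for WNT2, 0.20 for WNT5A, 0.17 for WNT6 and 0.19 for WNT7A. At 5 µM they were 0.26, 0.27, 0.23 and 0.18. Median scaling brought them to 0.13, 0.093, 0.093 and 0.11 at 20 µM and to 0.068, 0.065, 0.079 and 0.031 at 5 µM, all inside 2 technical SDs. The other probe of WNT5A was detected on no array, at 82.5, 78.2 and 78.0, so the level of this gene rests on 1 of its probes. In the annotation that probe is tied to a genomic record, and the undetected probe to a messenger RNA record. The WNT2 and FZD6 probes are tied to non-coding transcript records, and those of LRP5 and PTK7 to predicted non-coding ones. What RNA these probes measure was not tested. The other 12 detected ligands had log2 ratios between -0.074 for WNT8B and 0.14 for WNT3 at 20 µM, and all 18 detected ligands had a median of 0.046.

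WLS, the carrier that brings lipid-modified Wnt ligands from the Golgi to the cell surface, had a signal of 567.5 with DMSO, against 405.8 with 5 µM and 405.2 with 20 µM. Both treated arrays were below DMSO and close to each other. After normalization WLS was 1.26-fold lower at 20 µM, with a log2 ratio of -0.33, and stood at -0.17 at 5 µM. Median scaling gave -0.44 and -0.38, and the authors' deposited table -0.41 and -0.28, so the direction was the same under each of these.

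Of the 10 Frizzled receptors, 8 were detected on all arrays, with a median log2 ratio of -0.050 at either dose, and the 3 lowest ratios at 20 µM belonged to FZD5, FZD4 and FZD6. FZD5, a receptor with known roles in intestinal epithelium, had a signal of 297.6 with DMSO, against 198.3 with 5 µM and 224.0 with 20 µM. Its lowest value was thus at the lower dose: it was 1.30-fold lower than DMSO at 5 µM and 1.22-fold lower at 20 µM. FZD6, a receptor of the planar polarity branch, had 417.0, 301.4 and 322.1, and log2 ratios of -0.19 at 5 µM and -0.22 at 20 µM. FZD4, which also binds the ligand Norrin, had 107.5, 90.4 and 89.0. It was 1.21-fold lower than DMSO at 20 µM and 1.15-fold lower at 5 µM on the scale with the offset. FZD4 lay nearer to the blank spots than FZD5 or FZD6, and in the authors' deposited table its values were 13.0, 7.6 and 6.1, which is a 2.14-fold lower value at 20 µM. On all 3 arrays it was dimmer than the brightest position without a probe. FZD7, FZD2 and FZD8 stood at 0.070, 0.10 and 0.048 at 20 µM, and FZD9 and FZD3 at -0.029 and -0.071. FZD1 was at 84.7 in DMSO and FZD10 at 84.6, both not detected at either dose; with both near the threshold, the bound on their differences was at least 1.03-fold.

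The co-receptors of the beta-catenin branch were LRP5 and LRP6, to which DKK proteins such as DKK1 and DKK2 also bind. LRP6 had signals of 501.1, 438.5 and 452.5 from DMSO to the higher dose. Its log2 ratios were 0.033 at 20 µM and 0.13 at 5 µM, and turned to -0.079 and -0.073 under median scaling, so no direction can be given. LRP5 had 110.1, 97.0 and 95.4, with log2 ratios of -0.18 at 20 µM and -0.092 at 5 µM and, in the authors' deposited table, of -0.58 and -0.31.

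The receptors of the other branches did not move together. ROR1, a tyrosine kinase-like receptor that is active in the embryo and present again in several cancers, had a signal of 260.6 with DMSO, against 196.9 with 5 µM and 167.1 with 20 µM. The signal was lower at each step of dose, and at 20 µM it was below the brightest position without a probe on that array, 224. The quantile normalized log2 ratio at 5 µM, -0.18, lay inside 2 technical SDs, 0.22. With median scaling it was -0.32, beyond them. The normalized value was 1.13-fold lower at 5 µM and 1.47-fold lower at 20 µM, the lowest ratio of the 43 genes, and the authors' deposited table gave a log2 ratio of -0.84 at 20 µM. ROR2, its closest relative, had 138.8, 119.2 and 138.1. RYK, a receptor with an inactive kinase domain and a Wnt-binding region like that of WIF1, had 263.3, 207.3 and 256.3. In ROR2 and RYK the 5 µM array was lowest and 20 µM close to DMSO. Their log2 ratios of 20 against 5 µM were 0.20 and 0.23, the highest of the 43 genes, and these ran against the -0.38 of ROR1. Both lay inside 2 technical SDs, 0.232, which 0 of the 43 passed upward, against 7.09% of all genes. WNT11 and ROR1 passed it downward, 4.65% against 7.11% of all genes. With median scaling RYK, at 0.29, passed it upward, 2.33% against 10.6% of all genes. PTK7, a receptor of planar polarity, stood at -0.061 at 20 µM.

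LGR4, the R-spondin receptor, was measured by a pair of probes that gave like values. The probe that stands for the gene had a signal of 349.7 with DMSO, against 251.0 with 5 µM and 242.5 with 20 µM, and the other had 229.4, 165.7 and 168.4. Both were lower on both treated arrays. Their log2 ratios at 20 µM were -0.41 and -0.33 and at 5 µM -0.23 and -0.28, and median scaling gave -0.50 and -0.43 at 20 µM. LGR6, a relative of LGR4, had 123.4, 112.1 and 126.5, with a log2 ratio of 0.15 at 20 µM. The R-spondins are the ligands of these receptors. RSPO1 stood at 89.2, 85.0 and 85.4, below the bar of mean plus 10 SD on each array, and RSPO2 at 95.7, 90.0 and 94.0, with its other probe detected on no array.

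The 6 detected secreted antagonists had log2 ratios at 20 µM between -0.027 and 0.18, with a median of 0.014. SFRP5, a decoy for Wnt ligands, had signals of 237.5, 215.5 and 239.9 in the order of dose. Its log2 ratio at 20 µM was 0.18, with 0.070 for its other probe, and at 5 µM it was 0.13, which turned to -0.018 under median scaling. The ratios of SFRP1, SFRP2, WIF1, DKK2 and DKK3 at 20 µM lay between -0.027 for SFRP1 and 0.021 for DKK3. SFRP4 was at 83.3 in DMSO and was not detected at 5 or 20 µM, a difference of at least 1.01-fold.

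**Figure D3:**
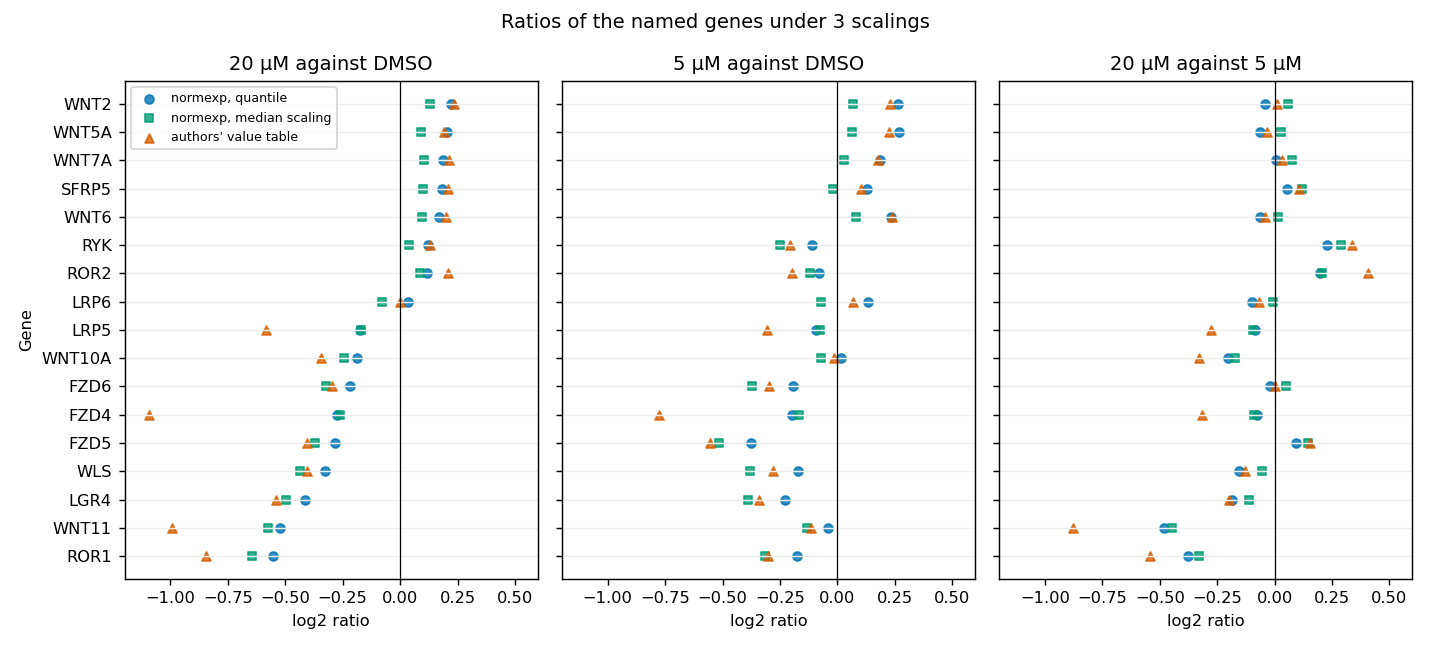
Log2 ratios of the 17 genes with individual values that were detected on all arrays, for the 3 comparisons, from quantile normalized signals, median-scaled signals and the authors' value table. For 20 µM against DMSO, ROR1, WNT11, LGR4, WLS and FZD5 lie below 0 in all 3, while FZD4, at -0.27, -0.26 and -1.10, and WNT11, at -0.52, -0.58 and -0.99, move most with the choice.

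The scale set how large the differences of dim genes appeared. In the authors' deposited table FZD4 was the 1 gene of the 43 at least 2-fold lower at 20 µM, 2.33% against 1.64% of all genes, and 0 were 2-fold higher against 1.43%. At least 1.5-fold lower were 3, FZD4, WNT11 and ROR1, 6.98% against 7.06% of all genes, and 0 were 1.5-fold higher against 5.70%. At 5 µM FZD4, at -0.78, was the 1 gene at least 1.5-fold lower, 2.33% against 2.84%, and WNT9A, at 0.85, the 1 that much higher, against 1.83%. WNT9A, at raw signals of 83.0, 81.7 and 80.5, was the dimmest of the detected ligands relative to the thresholds. Between the doses WNT11 at -0.88 and WNT9A at -0.64 were 1.5-fold lower, 4.65% against 3.03% of all genes, with 0 higher against 4.57%.

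Genes below DMSO by the step of 0.32 at either dose, a step chosen after the values were seen, were taken for their promoters. They were lower on both treated arrays, as were others, FZD4, FZD6 and LRP5 among them, that did not reach the step after quantile normalization. The sequences just before the start of the chosen genes are shown. They are the 250 bases before the annotated start, 5′ to 3′ on the gene's strand, from RefSeq on GRCh38.p14, in which 35 of the 48 genes were matched; WNT11 is named only. Capitals mark the letters GGGCGG (the GC box) or CCAAT on either strand.
ROR1 (chr1:63773767-63774016, + strand): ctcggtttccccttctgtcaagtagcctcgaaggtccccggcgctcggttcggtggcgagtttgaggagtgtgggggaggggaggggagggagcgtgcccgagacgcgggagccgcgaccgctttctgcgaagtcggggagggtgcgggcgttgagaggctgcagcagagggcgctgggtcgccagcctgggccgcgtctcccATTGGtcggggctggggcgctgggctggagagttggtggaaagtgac
LGR4 (chr11:27472791-27473040, - strand): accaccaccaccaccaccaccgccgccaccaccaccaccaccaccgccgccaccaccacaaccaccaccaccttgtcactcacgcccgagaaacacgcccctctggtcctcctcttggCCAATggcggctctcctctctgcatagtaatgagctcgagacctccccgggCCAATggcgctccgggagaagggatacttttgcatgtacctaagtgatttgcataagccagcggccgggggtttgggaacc
WLS (chr1:68232524-68232773, - strand): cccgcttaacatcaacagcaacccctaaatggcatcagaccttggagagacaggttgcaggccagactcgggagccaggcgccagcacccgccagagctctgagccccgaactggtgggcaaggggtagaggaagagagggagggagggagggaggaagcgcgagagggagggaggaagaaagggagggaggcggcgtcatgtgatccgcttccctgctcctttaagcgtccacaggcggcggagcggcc
FZD5 (chr2:207769907-207770156, - strand): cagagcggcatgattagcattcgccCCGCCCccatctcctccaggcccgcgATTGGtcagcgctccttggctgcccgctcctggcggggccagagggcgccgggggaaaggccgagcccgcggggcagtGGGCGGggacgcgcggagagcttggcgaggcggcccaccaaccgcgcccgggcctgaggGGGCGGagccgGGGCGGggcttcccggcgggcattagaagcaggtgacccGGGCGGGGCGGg
FZD5 held 6 GC boxes, overlapping ones included, and 1 CCAAT, LGR4 held 2 CCAAT and ROR1 1, and WLS held neither. Over 27305 promoters of the same length, 42.3% held GGGCGG and 33.0% CCAAT on either strand. Among the 35 matched genes 26, or 74.3%, held GGGCGG and 13, or 37.1%, held CCAAT. The median G and C content was 71.6% in the 35 genes and 58.0% in all promoters. The TCF/LEF core letters CTTTGA were in 0 of the 35 windows on either strand and in 11.4% of all promoters; this says only that the letters are not in these 250 bases.

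Other genes of the pathway were read from lists of names, which were also chosen with earlier results of these data known. Of 22 further extracellular and membrane genes detected on both arrays at 20 µM, 3 were at least 1.5-fold lower and 0 higher, where 1.84% of all genes were lower and 1.94% higher, and the median log2 ratio was -0.045. These were SOSTDC1 and DKK1, both secreted antagonists, at -1.63 and -0.75, and TSPAN12, a membrane partner of FZD4, whose signals were 266.5, 184.5 and 162.2 in the order of dose and whose ratio was -0.64. IGFBP4, which can bind Frizzled and LRP6, followed at -0.37. Of 33 intracellular genes, 0 were 1.5-fold apart, and the ratios ran from -0.41 for the tankyrase TNKS2 to 0.43 for the kinase GSK3A. The 24 genes of the planar polarity and calcium branch had 0 that far apart and a median of 0.00015, with CAMK2G at -0.42 and the small GTPase RHOA at -0.33. Of 9 genes of Wnt traffic 0 were 1.5-fold apart. The p24 cargo receptors TMED10, TMED2 and TMED5, which act between ER and Golgi, stood at 0.52, 0.38 and 0.33, and VPS35, the core of the retromer that recycles WLS, at 0.30. Median scaling gave 0.42, 0.27, 0.22 and 0.18 in the same order. SNX3, VPS29 and RAB8A of this list lay below 0, at -0.11, -0.089 and -0.020 after quantile normalization. The signals of TMED10 were 1224.3, 1166.4 and 1545.2. The list median of 0.21 came to 0.084 under median scaling, and NOTUM was counted both there and among the extracellular genes.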

How the data were processed

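Total RNA of 3 HT29 cultures was labelled with Cy5 and hybridised to Toray arrays, per the labels' protocols. Doses are in µM, as the treatment labels and descriptions have them; the titles write mM. Per the file headers, the deposited scanner files hold the median intensity of each spot, read at 3 gains. The authors' deposited value table is also an intensity per probe; its values follow the scanner signal less roughly the level of the blank spots, share a median of 25.0, and are empty for dim probes. Each spot's local background reading was left out.

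Signals were corrected by normexp (limma 3.58.1, R 4.3.3; offset 50), taken to log2 and quantile normalized over 24460 gene probes. Blank spots were trimmed by 5% at each end for the detection threshold. Of several probes, the one detected on most arrays, then the brightest, stood for the gene. Python 3.11.15, numpy 2.4.6, pandas 2.3.3 and matplotlib 3.10.9 were used, and the steps were tested on simulated data. Individual values were given for the genes with the 12 largest absolute ratios at 20 µM against DMSO or the 6 largest of the other comparisons, those at least 1.5-fold apart, those detected on some arrays only, and LRP5, LRP6 and WLS; genes outside this rule are named as examples of their class. Members and lists were chosen with earlier results of these data known. With 1 array per group no test was made. The 7 alternative settings, and 1 added later, changed the detection bar, the offset, the background correction, the scaling, the source of the values, the probe rule or the filter.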

Additional observations from a re-analysis of the deposited data

Results flagged for a closer look

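The positions that carry no probe were outside the comparisons, and some gave signal above the threshold set by the blank and negative control spots. Of 2412 such positions, 317 did so on the DMSO array, 444 on the 5 µM array and 278 on the 20 µM array. The brightest signals among them were 134, 101 and 224. On the DMSO array 134 lies between FZD2 at 128.8 and ROR2 at 138.8. Above the mean plus 10 SD of the blank spots they numbered 4, 2 and 10.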

How the results depend on the processing

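Above the brightest position without a probe, an alternative added after the values were seen, 11 genes were detected on all arrays in place of 43, which is 22.9% against 27.8% of all genes. For 20 µM against DMSO, the number at least 1.5-fold lower was 0 as reported, 3 with an offset of 10 (WNT11, ROR1 and FZD4), 1 with median scaling (ROR1) and 3 in the authors' deposited table, where 1 was at least 2-fold lower. For 5 µM against DMSO that table gave 1 gene at least 1.5-fold higher and 1 lower, and for 20 against 5 µM it gave 2 lower, where an offset of 10 gave 1. The cause was not tested, except that an offset shrinks the ratios of dim genes by construction. The share of all genes at an offset of 10 was not counted, so its counts cannot be read as particular to the set. The other counts at 1.5-fold and 2-fold and the medians of the 3 comparisons kept to within 1.5 times or the technical SD under the alternatives run. At the step of 0.32, also chosen after the values were seen, the number lower at 20 µM went from 4 to 5 with median scaling and 10 in the deposited table, and at 5 µM from 1 to 4 in both. The numbers higher were 0 in each comparison as reported and with median scaling, and reached 2, 2 and 4 in the deposited table; between the doses the number lower went from 2 to 4 there. Of the 51 single-gene ratios, 7 had an absolute log2 ratio of at least 0.32, and these kept their sign in all 52 values the alternatives gave. Many of these values could not turn: a changed detection bar or filter leaves a ratio as it is. The mean of all probes does the same for a gene with 1 probe. Among the rest, signs turned in 13 values of 7 genes: LRP6, WNT10A, SFRP5, WNT2, WNT5A, WNT6 and FZD6. No paired analysis was possible because each group had 1 array.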
